A study of Mus musculus with 9 samples.

Results

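The genes described here are 36 genes of glycolysis and of the response to low oxygen, taken by name: 16 glycolytic enzymes, 6 genes of glucose and lactate transport and flux control, and 14 other known targets of the hypoxia-inducible factor Hif. They were measured by 61 probes on 9 one-colour Agilent arrays of total RNA from mouse embryonic stem cells, cultured cells of the early embryo that renew themselves. A gene was tested if the 3 arrays of some group all read a probe of it well above background, which held for 34 of the 36 genes among 19913 in all. The missing ones were Adm, which encodes the vasodilator peptide adrenomedullin (above background on 1 of 9 arrays), and Mxi1, which encodes an antagonist of Myc (on 0 of 9). Xpc senses DNA damage for nucleotide excision repair and has also been linked to transcription by the stem cell factor Oct3/4. The study asked what Xpc loss does to expression, in 3 groups of 3 arrays. Floxed cells (titled Xpc_f/f-Tx) carried an Xpc gene flanked by loxP sites, with no deletion. Induced cells (titled Xpc_f/f+Tx_day4) came from the same inducible line, 4 days after Cre-loxP deletion. Null cells (titled Xpc_KO) were subcloned cells that lack Xpc constitutively, so clonal differences and Xpc loss cannot be told apart in them. No group received the inducing treatment without losing Xpc. Whether the arrays of a group came from separate cultures is not stated, so p-values measure only the spread between these samples, which may be technical.

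Glycolysis breaks glucose down to pyruvate, which lactate dehydrogenase can turn into lactate for export from the cell. Hif is a transcription factor whose alpha subunit is marked for destruction while oxygen is present and escapes that fate in low oxygen, when it binds short DNA motifs and raises glucose uptake, glycolysis and lactate export. Many of the same enzyme genes are also driven by Myc and other factors, and mouse embryonic stem cells are known to draw on both glycolysis and mitochondrial respiration.

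ACGTG is the most common form of the core of the Hif response element. It was searched on both strands in the 250 bases before each RefSeq start site (GRCm38.p6), where 33 of the 36 genes had a window. At least 1 match stood in the windows of 20 of these 33 genes (60.6%), against 18.5% of 27025 genes with a window. Some genes had several windows, and counted by window the shares were 47.1% and 16.6%. By role, 7 of 16 glycolytic enzymes, 4 of 5 genes of transport and flux control and 9 of 12 other Hif targets held one. The palindrome CACGTG, an E-box bound by Myc and related factors, contains the motif on both strands and counts as 2 matches. A match is a description and not a binding site or a cause. The following stretches belong to 5 genes that lay higher in null cells and were picked after their values were seen, to show how the motif is placed. They run 5′ to 3′ on the strand of the gene, with ACGTG or its reverse complement CACGT in capitals. Those of Ldha, Slc16a3 and Bnip3 are 120 bases long, at chr7:46845657-46845776, chr11:120948947-120949066 and chr7:138909552-138909671 (minus strand for Bnip3). Those of Hk2 (chr6:82774455-82774704) and Ankrd37 (chr8:45999851-46000100), both on the minus strand, are the whole 250 bases.
Ldha: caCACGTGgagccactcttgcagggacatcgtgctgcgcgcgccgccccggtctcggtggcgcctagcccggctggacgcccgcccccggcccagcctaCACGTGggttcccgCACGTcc
Slc16a3: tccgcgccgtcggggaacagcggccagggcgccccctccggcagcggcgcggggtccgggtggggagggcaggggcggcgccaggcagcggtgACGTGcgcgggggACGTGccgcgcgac
Bnip3: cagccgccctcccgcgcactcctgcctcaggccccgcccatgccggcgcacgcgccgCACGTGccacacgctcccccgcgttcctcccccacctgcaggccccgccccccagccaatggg
Hk2: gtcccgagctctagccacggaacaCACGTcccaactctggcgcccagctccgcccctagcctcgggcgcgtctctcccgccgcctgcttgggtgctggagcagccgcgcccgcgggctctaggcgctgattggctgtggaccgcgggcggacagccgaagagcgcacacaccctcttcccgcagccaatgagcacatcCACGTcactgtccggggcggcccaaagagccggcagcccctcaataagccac
Ankrd37: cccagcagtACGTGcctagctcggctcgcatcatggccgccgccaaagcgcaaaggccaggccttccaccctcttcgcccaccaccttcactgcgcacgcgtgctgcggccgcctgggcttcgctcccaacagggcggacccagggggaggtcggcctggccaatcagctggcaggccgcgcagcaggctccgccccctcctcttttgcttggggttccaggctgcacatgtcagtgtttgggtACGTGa
Ldha held 5 matches, from a pair of E-boxes and 1 single copy. Bnip3 had 1 E-box, and Slc16a3 carried both of its copies within the last 120 bases. The windows of Aldoc, Tpi1, Pfkl, Eno1, Gpi1, Higd1a and Pdk1 hold no ACGTG, although these genes also lay higher in null cells than on floxed arrays 1 and 2. A window of Vegfa, which lay lower, holds 1 match. Presence or absence of the motif says nothing about the factor at those genes.

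Each value below is the log2 of a probe's processed signal over the 75th percentile of its own array, so that 0 is the level of that percentile. The share of spots well above background was 47.4% to 57.9% per array, with 0 saturated spots. Xpc read 0.59, 0.55 and 0.16 on floxed, -1.11, -0.68 and -1.05 on induced and -0.85, -1.53 and -1.37 on null arrays 1 to 3. It was lower in null than floxed cells by limma (log2 difference -1.68, adjusted p = 0.00584 over all genes). In induced cells the difference from floxed cells was -1.38 (limma adjusted p = 0.224 over all genes). Adjusted over the 3 comparisons of Xpc alone, the limma p-values were 5.16e-05 for null and 0.000122 for induced cells. Whether the deletion removes the sequence that the Xpc probe reads is not stated. The arrays sat on 3 slides, numbered here by order of appearance. Floxed arrays 1 and 2 shared slide 1. Floxed array 3 shared slide 2 with null array 3. Slide 3 carried null arrays 1 and 2 together with all 3 induced arrays. Floxed array 3 stood apart from the other floxed arrays in many genes: 22.4% of all genes differed from the mean of floxed arrays 1 and 2 by more than 0.5. By its Xpc signal it lay with the floxed arrays. Floxed and induced arrays shared no slide. All 10 stem cell markers were measured, with a summed signal between 778 and 1007 times the 75th percentile on every array. That sum rests largely on Dppa5a, the brightest of the 10, and single markers moved within it. On floxed array 3 Klf4 read 2.78, against 3.89 and 4.02 on floxed arrays 1 and 2, and Esrrb 6.07, against 6.97 and 7.13. On that array only Utf1 (6.08, against 5.91 and 5.92) and Dppa5a (9.13, against 8.76 and 8.97) lay above the mean of floxed arrays 1 and 2. All other stem cell markers lay below it, among them Zfp42 (6.51, against 7.22 and 7.21) and, only just, Fgf4. On slide 3 only Utf1 (0.63) and Tdgf1 (0.19) lay higher in null than induced cells. The other stem cell markers lay lower, among them Nanog (-0.67), Esrrb (-0.66) and Pou5f1 (-0.33), with Dppa5a and Fgf4 both at -0.03.

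On floxed array 3 the glycolytic genes lay near the null arrays rather than near the other floxed arrays. Among the 34 genes, 17 lay more than 0.5 from the mean of floxed arrays 1 and 2, against 22.4% of all genes. Of these, 15 lay above (12.3% of all genes did) and 2 below (10.1%). The median difference of floxed array 3 from those arrays was 0.49 over the 16 glycolytic enzymes, 0.54 over the 6 genes of transport and flux control and 0.34 over the 12 measured Hif targets, against 0.04 over all genes. On slide 2, where floxed array 3 and null array 3 can be set side by side, null minus floxed had medians of 0.06, 0.02 and 0.07 for the same lists. Only Aldoc (0.73) and Ankrd37 (0.54) differed by more than 0.5 there, 2 of 34 against 11.2% of all genes. Each comparison with floxed cells is therefore given with and without this array.

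**Figure D1:**
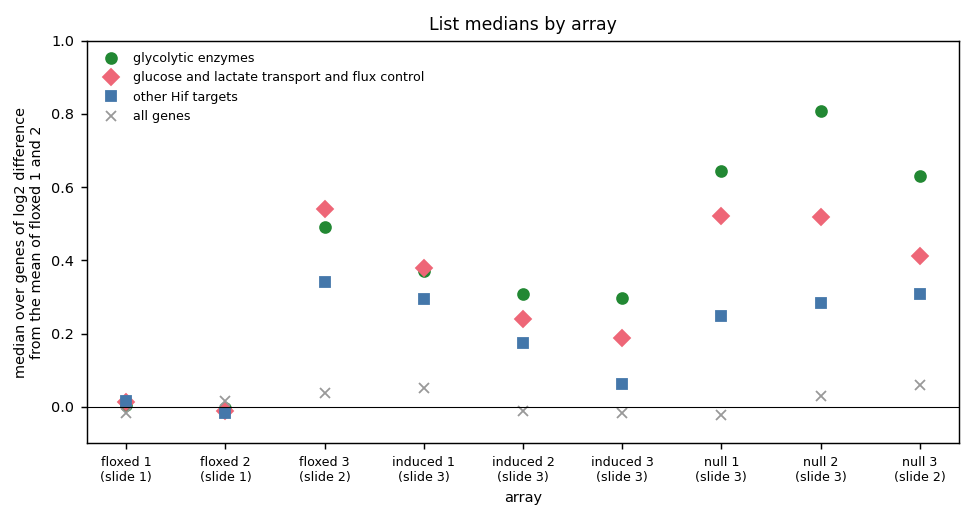
Each point is the median, over the genes of a list, of the log2 difference of 1 array from the mean of floxed arrays 1 and 2, with arrays and their slides on the horizontal axis. Medians of the glycolytic enzymes were 0.49 on floxed array 3, between 0.30 and 0.37 on the induced arrays and between 0.63 and 0.81 on the null arrays, while those of all genes stayed between -0.02 and 0.06.

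The induced mean lay between the mean of floxed arrays 1 and 2 and the null mean for 26 of the 34 genes, against 56.3% of all genes. It did so for 15 of the 16 glycolytic enzymes and for 6 of the 12 Hif targets. Floxed array 3 has no part in this count, and floxed arrays 1 and 2 share no slide with the induced or the null arrays. The share of all genes is not a like baseline, since a mean falls in between more often where the outer means lie far apart. Null minus floxed arrays 1 and 2 had a median of 0.52 over the 34 genes, whereas only 20.6% of all genes differed there by more than 0.5. On floxed array 3 the enzyme median, relative to floxed arrays 1 and 2, was 0.49. That lay above the 0.30 to 0.37 of the induced arrays.

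Null cells were first compared with floxed cells. Against floxed arrays 1 and 2, null cells had 5.0-fold more signal of the lactate exporter Slc16a3 and 2.22-fold more of Ldha, and less of Vegfa, Ldhb and Slc2a3. With floxed array 3 included, Aldoc alone of the 34 genes passed the test. Floxed array 3 was singled out after its values were seen. Without it, the floxed arrays sit on slide 1 only and the null arrays on slides 2 and 3. Group and slide cannot be told apart in that fit, and its p-values here and below do not separate them. Over all 3 floxed arrays, 1 of the 34 genes passed the test (limma, adjusted p under 0.05 over all genes), against 1.85% of all genes. It was higher in null cells, as were 0.738% of all genes. Unadjusted p-values under 0.05 were found for 21 of the 34, against 22.8% of all genes. The fitted differences had a median of 0.51 over glycolytic enzymes, 0.34 over transport and flux control and 0.22 over Hif targets, against 0.01 over all genes. The values of the groups did not overlap for 18 of the 34, against 23.4% of all genes, with 15 higher in null cells (against 12%) and 3 lower (against 11.4%). Without floxed array 3, 25 of the 34 passed, against 24.8% of all genes. Of these, 22 were higher in null cells, against 13.1% of all genes, and 3 lower, against 11.7%. By list, 13 of 16 glycolytic enzymes, 5 of 6 genes of transport and flux control and 7 of 12 Hif targets passed. With slide as a block the comparison rests on slide 2 alone, and 0 of the 34 passed (limma, against 0.251% of all genes), with 3 at an unadjusted p under 0.05, against 10.3%.

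**Figure D2:**
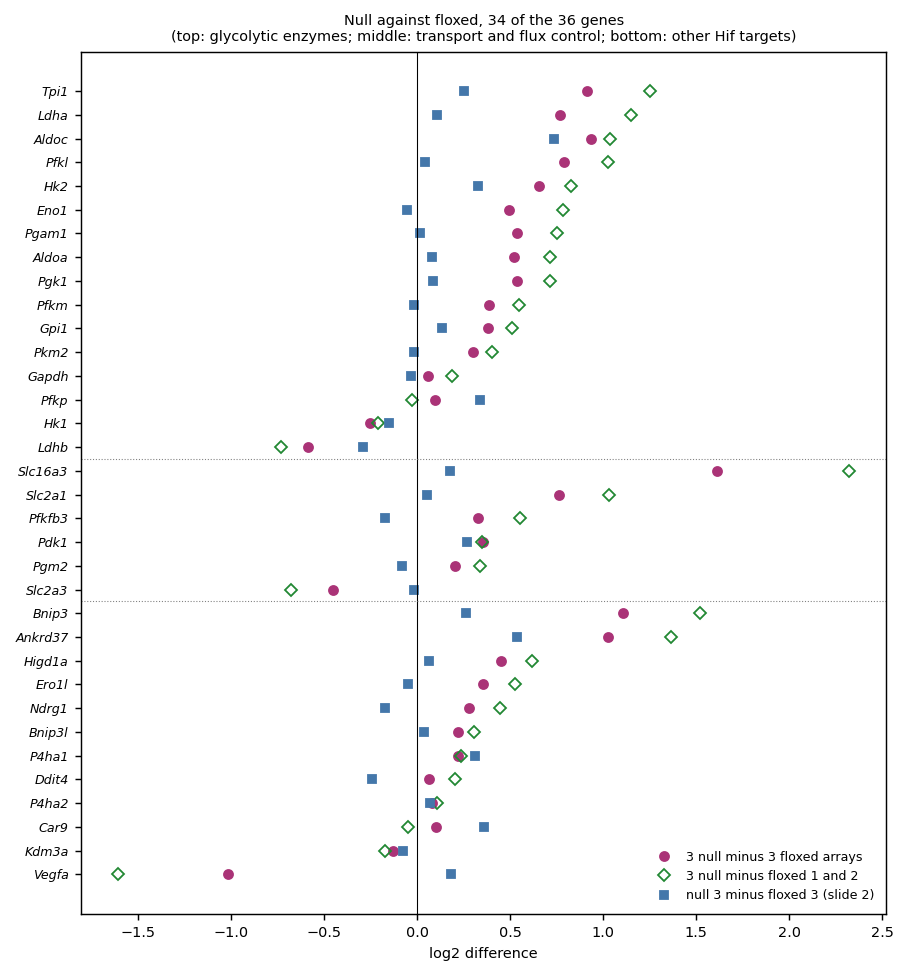
Log2 difference of null minus floxed signal for each of the 34 tested genes, grouped by role, over all arrays (filled circles), without floxed array 3 (open diamonds) and between the arrays of slide 2 (squares). Without floxed array 3, Slc16a3 lay highest at 2.32 and Vegfa lowest at -1.61, whereas most squares lie near 0.

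Among the glycolytic enzymes, the gene that passed over all arrays was Aldoc, which encodes the aldolase isoform best known from brain (probe at chr11:78140198-78140257, mm9). It read 2.96, 2.78 and 3.19 on floxed, 3.59, 3.58 and 3.41 on induced and 3.80, 4.01 and 3.92 on null arrays 1 to 3. Every null array lay above every induced array, and every induced array above every floxed array. The mean was 2.98 ± 0.21 (SD, n = 3) in floxed and 3.91 ± 0.11 (n = 3) in null cells, a log2 difference of 0.93 with a standard error of 0.12 (limma adjusted p = 0.0100). Without floxed array 1 (0.92) or without null array 2 (0.88) it missed the threshold, and slide as a block gave 0.73 (limma adjusted p = 0.218).

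The other glycolytic enzymes are given in the order of the pathway. Hk2, an inducible hexokinase that traps glucose in the cell, read 2.37, 2.49 and 2.93 on floxed, 2.76, 2.83 and 2.72 on induced and 3.28, 3.23 and 3.26 on null arrays 1 to 3. Null arrays lay above all others, and floxed array 3 lay above the induced arrays. Its difference between null and floxed cells was 0.66 with a standard error of 0.14 (limma adjusted p = 0.0557), and 0.82 without floxed array 3 (adjusted p = 0.000584). Pfkl, the liver-type subunit of phosphofructokinase, the committed step of glycolysis, read 2.44, 2.32 and 3.09 on floxed, 2.97, 2.91 and 2.92 on induced and 3.54, 3.55 and 3.13 on null arrays. Here null array 3 lay well below the other null arrays, and close to its slide neighbour, floxed array 3. The difference was 0.79 (limma adjusted p = 0.0833), short of the threshold, and 1.03 without floxed array 3 (adjusted p = 0.00186). Tpi1 encodes triosephosphate isomerase, which interconverts the products of aldolase, and read 4.90, 4.78 and 5.86 on floxed, 5.49, 5.30 and 5.28 on induced and 5.95, 6.22 and 6.11 on null arrays. Floxed array 3 stood only just below the null arrays. Over all arrays the difference was 0.91 (limma adjusted p = 0.0947), and without floxed array 3 it was 1.25 (adjusted p = 0.000386), a fold of 2.38.

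Further down the pathway, Pgam1 encodes a phosphoglycerate mutase and read 7.11, 7.10 and 7.74 on floxed, 7.55, 7.49 and 7.48 on induced and 7.81, 7.99 and 7.75 on null arrays. Floxed array 3 lay next to null array 3, with a gap of 0.013. Its difference was 0.54 over all arrays (limma adjusted p = 0.121) and 0.75 without floxed array 3 (adjusted p = 0.00146). Ldha, whose product favours the making of lactate from pyruvate, read 7.99, 7.88 and 9.07 on floxed, 8.67, 8.54 and 8.56 on induced and 8.90, 9.16 and 9.18 on null arrays (probe at chr7:54110937-54110996, mm9). Floxed array 3 fell within the range of the null arrays. The difference was 0.77 with a standard error of 0.27 (limma adjusted p = 0.152), and 1.15 without floxed array 3 (adjusted p = 0.000469), a fold of 2.22. Ldhb, the subunit that favours the reverse reaction, read 6.94, 7.02 and 6.54 on floxed, 6.99, 6.73 and 6.77 on induced and 6.17, 6.32 and 6.25 on null arrays. All null arrays lay below all others, and floxed array 3 was the lowest outside the null group. Its difference of -0.59 did not pass over all arrays (limma adjusted p = 0.0743) and was -0.73 without floxed array 3 (adjusted p = 0.00257). The subunits of lactate dehydrogenase thus differed in opposite directions between null cells and floxed arrays 1 and 2.

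For the remaining glycolytic enzymes the differences without floxed array 3 were 0.51 for Gpi1 (glucose phosphate isomerase), 0.55 for Pfkm (muscle-type phosphofructokinase) and 0.72 for Aldoa (aldolase A). They were 0.71 for Pgk1 (phosphoglycerate kinase), 0.79 for Eno1 (enolase) and 0.40 for Pkm2 (pyruvate kinase, Pkm in RefSeq). These 6 passed without floxed array 3, with limma adjusted p-values between 0.000725 and 0.0228, and none of the 6 passed with it. Hk1 (-0.21), Pfkp (-0.03) and Gapdh (0.19), which encode a housekeeping hexokinase, the platelet-type phosphofructokinase and glyceraldehyde phosphate dehydrogenase, did not pass in either fit. Without floxed array 3, the phosphofructokinase genes thus gave 1.03 for Pfkl, 0.55 for Pfkm and -0.03 for Pfkp. The hexokinases gave 0.82 for Hk2 and -0.21 for Hk1. Over all arrays these were 0.79, 0.39 and 0.09, and 0.66 and -0.25. On slide 2 the order of the phosphofructokinase genes was not kept, at 0.04 for Pfkl, -0.02 for Pfkm and 0.34 for Pfkp. Hk2 was at 0.33 there and Hk1 at -0.15.

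**Figure D3:**
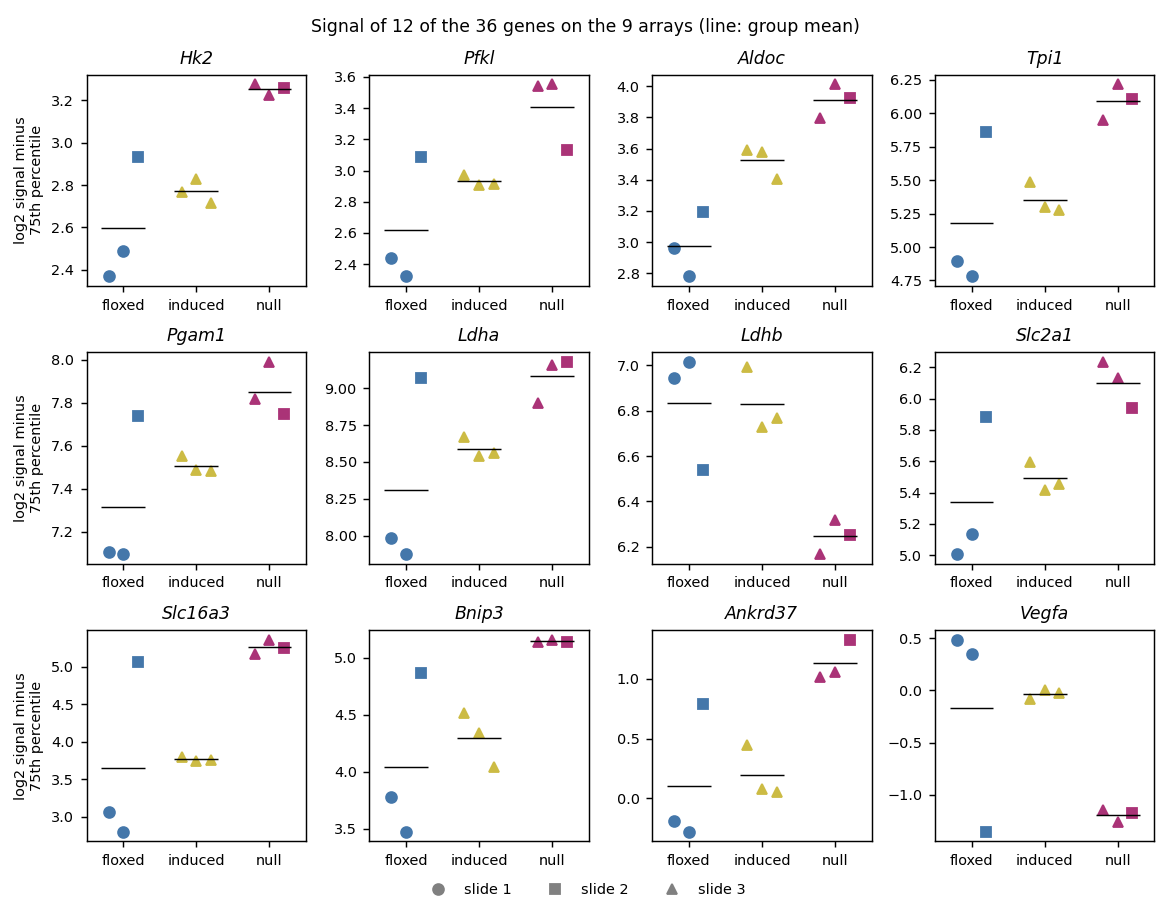
Log2 signal relative to the array's 75th percentile for 12 genes, 1 point per array, with the slide as the marker shape and the group mean as a line. In each panel floxed array 3 (blue square) lies on the side of the null arrays from floxed arrays 1 and 2 (circles), and for Slc16a3 it reads 5.07 against 3.06 and 2.80.

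Of the transport and flux genes, Slc16a3 had the largest difference of all 34. It encodes the lactate exporter MCT4 (probe at chr11:120820030-120820089, mm9). It read 3.06, 2.80 and 5.07 on floxed, 3.79, 3.74 and 3.76 on induced and 5.16, 5.36 and 5.24 on null arrays 1 to 3. The induced arrays lay close together, above floxed arrays 1 and 2 and below floxed array 3. Its mean was 3.64 ± 1.24 (SD, n = 3) in floxed and 5.25 ± 0.10 (n = 3) in null cells, a difference of 1.61 that missed the threshold (limma adjusted p = 0.113). Without floxed array 3 the difference was 2.32 with a standard error of 0.11 (limma adjusted p = 4.1e-05), a fold of 5.0, and on slide 2 it was 0.18.

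The glucose transporters differed in sign. Slc2a1 (GLUT1) read 5.01, 5.13 and 5.88 on floxed, 5.60, 5.42 and 5.46 on induced and 6.23, 6.13 and 5.94 on null arrays. Its null arrays lay above the rest, with null array 3 and floxed array 3 of slide 2 only 0.05 apart. The difference was 0.76 (limma adjusted p = 0.096), and 1.03 without floxed array 3 (adjusted p = 0.00084). Slc2a3 (GLUT3) read 6.53, 6.64 and 5.91 on floxed, between 6.41 and 6.59 on induced and between 5.89 and 5.93 on null arrays. Floxed array 3 again lay with the null arrays. The Slc2a3 difference was -0.45 (limma adjusted p = 0.177), and -0.68 without floxed array 3 (adjusted p = 0.00185). Pfkfb3, whose product makes an activator of phosphofructokinase, was at 0.55 and Pdk1, a kinase that keeps pyruvate out of the mitochondrial cycle, at 0.35 without floxed array 3 (limma adjusted p = 0.00274 and 0.0397). For Pdk1, floxed array 3 lay only -0.01 from floxed arrays 1 and 2. Pgm2 (Pgm1 in RefSeq), a phosphoglucomutase that links glycogen to glycolysis, was at 0.34 and did not pass (adjusted p = 0.0723).

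Among the Hif targets outside glycolysis, Bnip3 and Ankrd37 lay higher in null cells and Vegfa lower. Bnip3, a receptor for the removal of mitochondria (probe at chr7:146082760-146082819, mm9), read 3.78, 3.47 and 4.87 on floxed, 4.52, 4.34 and 4.05 on induced and 5.14, 5.16 and 5.13 on null arrays. The null arrays lay close together and above all others. Its difference was 1.10 with a standard error of 0.31 (limma adjusted p = 0.0971), and 1.52 without floxed array 3 (adjusted p = 0.000532), a fold of 2.87. Ankrd37, an ankyrin repeat protein and known Hif target, read -0.19, -0.28 and 0.79 on floxed, 0.44, 0.08 and 0.06 on induced and 1.01, 1.06 and 1.33 on null arrays. Floxed array 3 lay between the induced and the null arrays. Its difference was 1.02 (limma adjusted p = 0.0838), and 1.36 without floxed array 3 (adjusted p = 0.000797).

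Vegfa encodes a growth factor for blood vessels and is a textbook Hif target, with a sign opposite to that of Bnip3 and Ankrd37 (probe at chr17:46154387-46154446, mm9). It read 0.48, 0.35 and -1.35 on floxed, -0.09, -0.00044 and -0.02 on induced and -1.15, -1.26 and -1.17 on null arrays. Floxed array 3 was the lowest of all 9, below every null array. The mean was -0.17 ± 1.03 (SD, n = 3) in floxed and -1.19 ± 0.06 (n = 3) in null cells, a difference of -1.02 that did not pass (limma adjusted p = 0.184). Leaving that array out gave -1.61 with a standard error of 0.09 (limma adjusted p = 6.23e-05), and on slide 2 the sign turned, at 0.18.

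For the other Hif targets, the differences without floxed array 3 passed for Higd1a (0.62), a protein of the inner mitochondrial membrane, and Ero1l (0.53, Ero1a in RefSeq), an oxidase for protein folding. They also passed for Ndrg1 (0.44), a stress-responsive gene, and Bnip3l (0.31), the relative of Bnip3, with limma adjusted p-values between 0.018 and 0.0433. Those of Ddit4 (0.21, an inhibitor of mTOR signalling), P4ha1 (0.23) and P4ha2 (0.11), subunits of collagen prolyl hydroxylase, did not pass. Neither did Kdm3a (-0.17), a histone demethylase, or Car9 (-0.05), the carbonic anhydrase widely used as a hypoxia marker. Car9 was above background on 8 of 9 arrays and read between -3.33 and -2.18.

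Null cells were compared with induced cells on slide 3, the one slide with more than 1 array of both groups. There 12 of the 34 genes passed (limma, null arrays 1 and 2 against the 3 induced arrays), against 12.4% of all genes. Of these, 9 were higher in null cells (5.27% of all genes were) and 3 lower (7.11%). Those higher were Tpi1, Pfkl, Hk2 and Pfkm of glycolysis, Slc16a3, Slc2a1 and Pfkfb3 of transport and flux control, and the Hif targets Bnip3 and Ankrd37, while Ldhb, Slc2a3 and Vegfa were lower. Slc16a3 lay 1.50 higher with a standard error of 0.10 (limma adjusted p = 0.00211), a fold of 2.82. Vegfa was at -1.17 with a standard error of 0.10 (limma adjusted p = 0.00297). Bnip3 differed by 0.85, Ankrd37 by 0.84, Tpi1 by 0.73 and Slc2a1 by 0.69, with limma adjusted p-values between 0.0124 and 0.0206. Floxed array 3 has no part in these values.

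**Figure D4:**
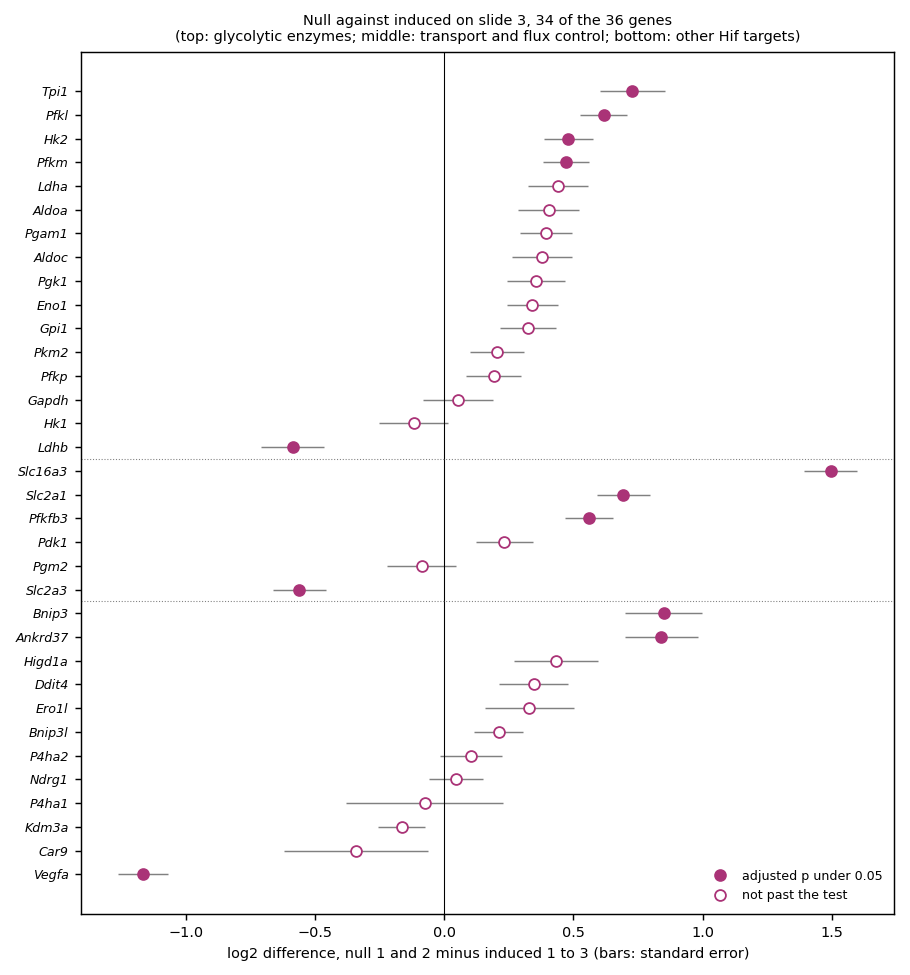
Log2 difference between null arrays 1 and 2 and the 3 induced arrays of slide 3 for each of the 34 genes, with the standard error as a bar and filled points for adjusted p under 0.05. Of the 16 glycolytic enzymes 14 lie above 0, with a list median of 0.37, and the points passing below 0 are Ldhb, Slc2a3 and Vegfa.

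Over all 9 arrays 0 of the 34 genes passed between null and induced cells (limma), against 2.2% of all genes, and 17 had an unadjusted p under 0.05, against 23.8%. The spread of the floxed arrays enters that fit. The values of the groups did not overlap for 25 of the 34 genes, against 37.2% of all genes, with 21 higher in null cells (against 19%) and 4 lower (against 18.3%). When floxed array 3 was left out, 18 of the 34 passed, against 18.1% of all genes, with 15 higher (against 8.47%) and 3 lower (against 9.66%). With slide as a block 16 passed, against 16.3%, with 13 higher (against 7.45%) and 3 lower (against 8.86%). The medians over all arrays were 0.35 for glycolytic enzymes, 0.36 for transport and flux control and 0.17 for Hif targets, against 0.02 for all genes.

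Markers of other cell types differed between the groups as well. Of 13 fibroblast markers 9 were measured, and their summed signal, in multiples of the array's 75th percentile, lay between 31.0 and 37.7 on floxed, between 21.0 and 28.5 on induced and between 9.64 and 11.5 on null arrays. Pdgfrb, Postn, Dcn and Lum were not above background by the rule. Of 12 trophectoderm markers 9 were measured, with sums from 79.8 to 118 on floxed, from 69.3 to 94.9 on induced and from 37.6 to 40.9 on null arrays, and Elf5, Psx1 and Plac1 were not measured. Of 12 primitive endoderm markers 4 were measured, at 22.5 to 26.7 on every array. Over all arrays Thy1 (1.37) and Fbln2 (0.09) of the measured fibroblast markers lay higher in null than floxed cells, and the others lower. Of the measured trophectoderm markers, Eomes (0.45) and Tead4 (0.29) lay higher and the others lower. On floxed array 3 the sums were 31.0 for fibroblast and 79.8 for trophectoderm markers, above every null array, but they rest mainly on bright genes such as Tagln and Krt18. Marker by marker, floxed array 3 lay nearer the null mean than the mean of floxed arrays 1 and 2 for 1 of 9 fibroblast (Thy1), 3 of 9 trophectoderm (Eomes, Tfap2c and Krt7), 3 of 4 primitive endoderm and 5 of 10 stem cell markers. It did so for 30 of the 34 glycolytic genes and Hif targets, against 63.3% of all genes. That rule compares distances only. It also counts genes such as Pfkp (2.68 on floxed array 3, against means of 3.02 and 3.05) and Car9 (-3.33, against -2.91 and -2.86). For these, floxed array 3 lay below both means. The part of these cell types in the differences of the glycolytic genes and Hif targets was not tested, and fewer cells of a type and less RNA per cell cannot be told apart in bulk RNA.

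Induced cells were compared with floxed cells for changes within 4 days of deletion. None of the 34 genes passed over all arrays: 0 by limma, against 0.00502% of all genes, and 1 at an unadjusted p under 0.05 (Aldoc), against 5.91%. The medians were 0.15 for glycolytic enzymes, 0.14 for transport and flux control and 0.07 for Hif targets, against -0.00069 for all genes. The groups did not overlap for Aldoc and Pdk1 (higher in induced cells) and Hk1 (lower), 3 of 34 against 12.9% of all genes. The difference was 0.55 for Aldoc (limma adjusted p = 0.406). Without floxed array 3, 2 of the 34 passed, against 0.728% of all genes, both higher in induced cells (against 0.668%). These were Aldoc (0.66) and Slc16a3 (0.83). With slide as a block the induced arrays are linked to floxed array 3 through the null arrays, and 2 passed, against 0.874% of all genes. Slc16a3 was then lower in induced cells, at -1.32 (limma adjusted p = 0.0462), and Vegfa higher. The sign for Slc16a3 thus rested on which floxed arrays were used, and no slide holds both groups.

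The glycolytic enzymes were set beside the other Hif targets. Over arrays other than floxed array 3, null minus floxed had a median of 0.71 over the 16 enzymes and 0.27 over the 12 Hif targets, against 0.02 over all genes. The enzymes ranged from -0.73 (Ldhb) to 1.25 (Tpi1) and the Hif targets from -1.61 (Vegfa) to 1.52 (Bnip3). The difference between the lists was not tested. Other genes of the same pathways were taken from a pair of longer lists. Of 42 further genes of glycolysis and its branches 34 were measured. In the same fit they had a median of 0.05, and 12 passed (limma, against 24.8% of all genes). Of these, 9 were higher in null cells, against 13.1% of all genes. Over all arrays their median was 0.07 and 0 passed (limma, against 1.85% of all genes), with 9 at an unadjusted p under 0.05, against 22.8%. Of 36 further Hif targets 27 were measured. Leaving out floxed array 3, their median was 0.20 and 11 passed (against 24.8% of all genes), 7 of them higher in null cells (against 13.1%). Over all arrays it was 0.14, beside 0.22 for the 12 Hif targets above, and 3 passed (against 1.85% of all genes). Among these, Egln3, a prolyl hydroxylase that marks Hif for destruction, was higher in null cells at 1.27 (limma adjusted p = 0.0329). Stc2, a secreted glycoprotein, was at -0.79, and it also passed between null and induced cells (-0.96). Egln3 read -1.29, -1.30 and -0.39 on floxed, -0.50, -0.72 and -0.83 on induced and 0.36, 0.26 and 0.22 on null arrays. Its floxed array 3 stood between floxed arrays 1 and 2 and the null arrays.

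Of 12 genes with several measured probes, 11 had the same sign at every probe in null minus floxed without floxed array 3 (9 above 0, 2 below), and Pfkp had both signs. The probes of Slc16a3 gave 1.61 and 1.68 for null minus floxed over all arrays, and those of Ldha 0.77, 1.06 and 1.18. Some placements in the files limit single genes. The brightest Gapdh probe is placed on chromosome 7 of mm9 and another on chromosome 8, whereas RefSeq has Gapdh on chromosome 6. The Gapdh value is uncertain for this reason. Without floxed array 3 the Gapdh probes placed on chromosome 6 gave between 0.12 and 0.22, around the 0.19 of the probe used. The Pgk1 probe is placed on chromosome 3, whereas RefSeq has Pgk1 on chromosome X. The Hk1 probe used read 8.31 on average, against 2.80 and -0.86 at its other probes, and its value is uncertain. Without floxed array 3 it gave -0.21, and the other Hk1 probes -0.31 and -0.15.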

How the data were processed

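Cy3-labelled RNA of 9 samples was hybridised to 9 Agilent arrays of 1 colour, per the labels' protocols. The authors' deposited scanner files hold a linear spot intensity, the processed signal of Agilent Feature Extraction (version 10.7.3.1 in the submitters' processing notes), which is background-subtracted and detrended but not scaled between arrays, per the file headers. The series' deposited value table holds an intensity within 0.498% of the mean signal of the scanner files, and served as an alternative. The log2 values here were computed from the deposited intensity: the processed signal was divided by its 75th percentile on the same array, and the log2 taken. Per the file headers, probe positions are those of mm9, and exons and introns were not analysed here. Control and outlier spots were left out and spots of a probe averaged. Probes passing the filter numbered 27538, of which 2 were dropped for having only outlier spots on some array. A gene took its brightest probe. Names came through RefSeq accessions (GRCm38.p6) for 27235 of 55681 probes, otherwise from the files.

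Groups came from the sample titles. The 3 comparisons were made in 1 fit of 3 group means with limma 3.58.1 in R 4.3.3 (lmFit and eBayes, two-sided moderated tests, Benjamini-Hochberg over 19913 genes, threshold 0.05). Lists were described by counts and medians beside all genes, with no test of their own. Values in full are given for Xpc, for each gene past the test and for those with the largest absolute difference between null and floxed cells up to 12 genes. The genes, the lists and the other pathway genes were chosen with earlier results of these data known. The steps were tested on simulated data. Same-numbered arrays did not deviate together (correlations between -0.106 and 0.0873). That gave no sign that numbers pair samples but cannot exclude it with 3 arrays a group, and the main fit used no pairing. Alternatives covered scaling, background, filter, probe choice, slide, replicate number, array weights, samples in the fit and leaving out each array. Promoter sequences are RefSeq's (GRCm38.p6), and no probe sequence is shown. One further Hif target that passed is not reported here.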

Additional observations from a re-analysis of the deposited data

How the results depend on the processing

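Shares in brackets are those of all genes passing under the same setting. Between null and floxed cells, where 1 of the 34 genes passed (1.85%), 2 passed after quantile normalization (2.12%) and with probes above background on all arrays (2.42%), 3 with normexp background correction (2.86%) and with the series' value table (2.34%), and 25 with array weights (30.2%), where floxed array 3 had a weight of 0.158. With no filter on dim probes (0.217%), with slide as a block (0.251%) and with only the groups compared (0.412%), 0 passed by limma, while 19, 3 and 17 had an unadjusted p under 0.05. Between null and induced cells, where 0 passed (2.2%), 1 passed with normexp (2.76%) and with the value table (2.26%), 16 with slide as a block (16.3%), 7 with slide as a random block (9.1%), 12 within slide 3 (12.4%), 21 with array weights (20.8%) and 14 with only the groups compared (14.0%). Between induced and floxed cells, where 0 passed (0.00502%), 2 passed with slide as a block (0.874%) and 7 with array weights (5.62%). Leaving out 1 array gave between 0 and 25 passing genes for null minus floxed, between 0 and 18 for null minus induced and between 0 and 2 for induced minus floxed, the highest each without floxed array 3 (24.8%, 18.1% and 0.728%), and 0 without floxed array 1 or null array 2 for null minus floxed. The cause of these differences was not tested.

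The median of the glycolytic enzymes in null minus floxed was 0.062 with slide as a block and within slide 2, 0.30 with slide as a random block and 0.72 with array weights, and from 0.37 to 0.71 with 1 array left out. In induced minus floxed it was -0.24 with slide as a block and from 0.049 to 0.34 with 1 array left out, and in null minus induced from 0.29 to 0.38. The median of the other Hif targets was 0.067 in null minus floxed and -0.20 in induced minus floxed with slide as a block, and 0.067 within slide 2 in null minus floxed. With 1 array left out it ran from 0.18 to 0.27 in null minus floxed, from 0.13 to 0.24 in null minus induced and from -0.020 to 0.22 in induced minus floxed. Xpc without 1 array ran from -0.50 to -0.17 in null minus induced, from -1.88 to -1.54 in null minus floxed and from -1.51 to -1.30 in induced minus floxed.

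Signs turned mainly in induced minus floxed, where none of the 12 genes shown by array had passed. With slide as a block the values were -0.30 for Ankrd37, -0.58 for Bnip3, -0.15 for Hk2, -0.33 for Ldha, 0.30 for Ldhb, -0.58 for Pfkl, -0.38 for Pgam1, -1.32 for Slc16a3, -0.64 for Slc2a1 and -0.48 for Tpi1. With slide as a random block they were -0.016 for Ankrd37, -0.033 for Bnip3, 0.10 for Ldhb, -0.039 for Pfkl, -0.022 for Pgam1, -0.38 for Slc16a3, -0.15 for Slc2a1 and -0.048 for Tpi1. Ldhb was at 0.032 after quantile normalization and Vegfa at -0.37 with array weights. With 1 array left out, Ankrd37 ran from -0.11 to 0.43, Bnip3 from -0.023 to 0.68, Ldhb from -0.15 to 0.088, Slc16a3 from -0.30 to 0.83, Slc2a1 from -0.018 to 0.42, Tpi1 from -0.023 to 0.51 and Vegfa from -0.45 to 0.47. In null minus floxed Vegfa turned to 0.18 with slide as a block. Across these 12 genes no sign turned in null minus induced under 264 values from the alternatives run, and 60 of them passed where the main value had not. Not all of these values could turn. Leaving out a floxed array, the replicate block and fitting only the compared groups leave that difference unchanged.

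With the replicate block, 0, 1 and 0 of the 34 genes passed in induced minus floxed, null minus floxed and null minus induced, as without it. Each array stands for 1 sample and 3 samples a group limit the precision.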
